A study of Drosophila melanogaster and Drosophila virilis with 60 samples.

Results

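The transcriptomes of *D. melanogaster* whole animals were compared between pupae aged 48 h and adult males aged 5 d. These 6 libraries, 3 of pupae and 3 of adult males, were chosen by their stage labels out of 30 libraries of this species and 60 in the whole dataset, which follows development from the embryo to the adult in *D. melanogaster* and *D. virilis*. All animals were wild type (Oregon-R) and were reared on the same standard medium at a constant temperature. Each library was made from poly(A) RNA of a pool of whole bodies, and the 3 replicates of a stage were collected independently. The pupae were not sexed, so their pools held males and females in unknown proportion, whereas the adult pools held males only. Sex and stage therefore cannot be told apart for any gene that differs between the sexes.

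A 48 h pupa is midway through building the adult body. In the pupa, larval tissues are broken down or remodelled, imaginal cells differentiate into the adult epidermis, eyes, wings and legs, the epidermis secretes the adult cuticle and raises hairs and bristles, and flight muscle is assembled. Pulses of the steroid ecdysone time these steps. The adult male feeds, sees and mates, functions that the pupa does not yet carry out, and it makes sperm and seminal fluid. In RNA of whole bodies, fewer cells of a type and less RNA per cell cannot be told apart.

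The deposited values are variance-stabilized counts (VST values), which are on a log2 scale, so that differences given without a unit below are differences in VST value, adult males minus pupae, and understate the change of genes near 0 counts. Counts recovered from these values gave the levels below, as CPM, the count of a gene relative to the total count of its library. The libraries held 8499050 to 11060409 counts, and replicates of the same stage had Spearman correlations of 0.950 to 0.989. These totals are higher than the read numbers that the study's text gives, and the floors and "at least" ratios below rest on them, so that a lower depth would make those ratios smaller. Adult replicate 2 correlated less with the other adult libraries (0.956 and 0.951) than these did with each other (0.989), and pupal replicates 2 and 3 were the least alike of the pupae (0.950). Genes annotated as ribosomal RNA or its pseudogenes took 4.99%, 14.4% and 0.945% of the counts in pupal replicates 1, 2 and 3 and 0.150% to 0.276% in the adult libraries, so that pupal replicate 2 stood apart and its CPM values of all other genes are lowered by that share. The 13 genes of the mitochondrial genome took 2.97%, 1.61% and 5.83% in the pupae and 3.03% to 5.96% in the adult libraries. Of 14048 genes whose values varied, 5821 (41.4%) were higher and 3480 (24.8%) were lower in adult males (limma, Benjamini-Hochberg adjusted p under 0.05), so that 66.2% differed in either direction. The difference was at least 1 in 3737 of the higher and 1528 of the lower genes, and at least 4 in 496 and 251. The adult values were shifted upward as a whole, with a median difference of 0.41 over the genes above a filter on low values. When every library was centred on its median, 4242 genes (30.2%) were higher and 5768 (41.1%) lower, and the share of calls that were higher went from 62.6% to 42.4%. This centring also moves genes without counts downward, and its counts are given below where they change a direction.

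**Figure D1:**
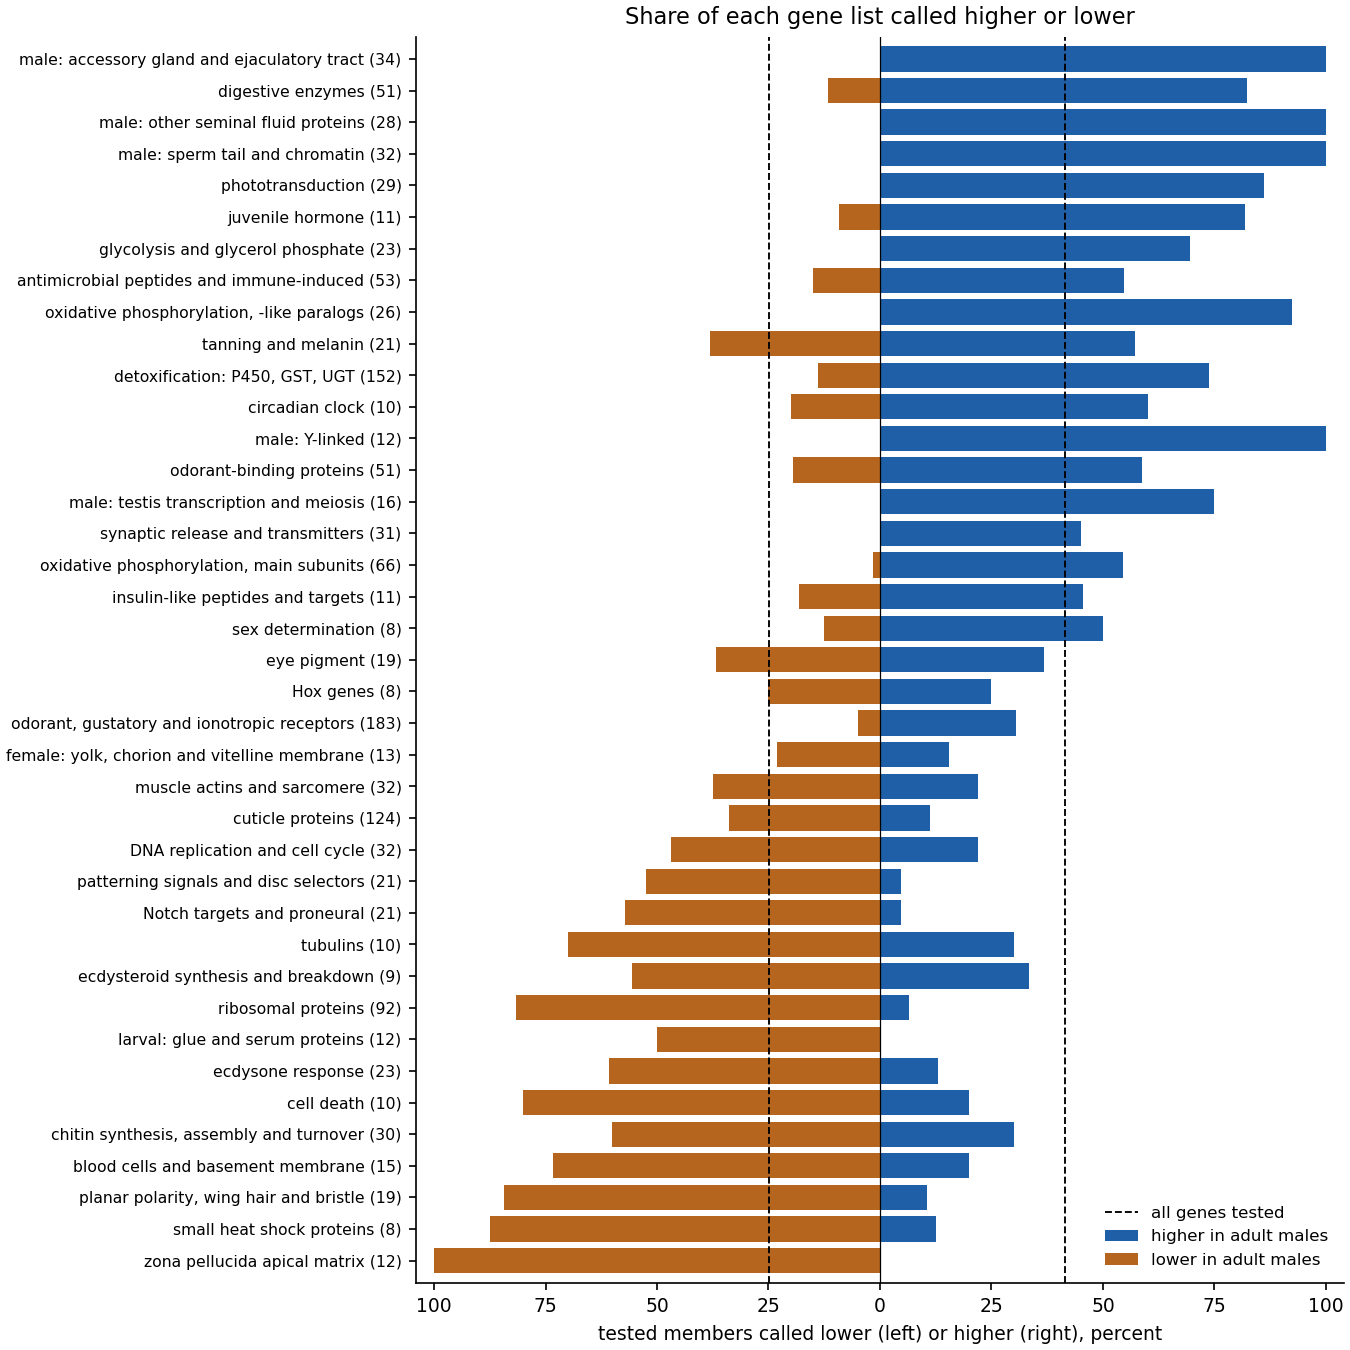
Percent of the tested members of each gene list called higher (right, blue) or lower (left, brown) in adult males than in 48 h pupae, by limma at an adjusted p under 0.05, with lists ordered by their median difference, the number of tested members in parentheses and dashed lines at the shares over all genes (41.4% and 24.8%). The lists of seminal fluid, sperm and Y-linked genes were called higher in full, and the list of zona pellucida matrix genes was called lower in full.

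**Figure D2:**
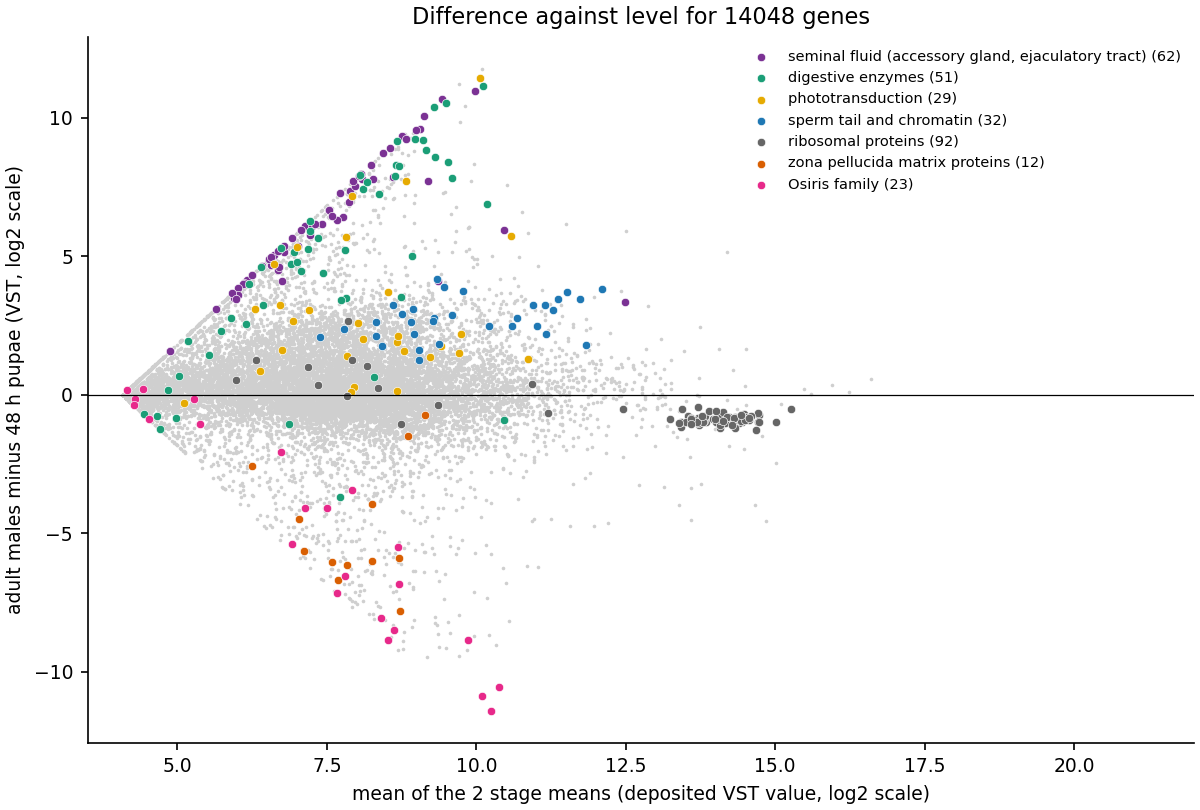
Difference between adult males and 48 h pupae (VST value, log2 scale) against the mean of both stage means for all 14048 genes (grey points), with 7 gene groups in colour and the number of genes in parentheses. Seminal fluid and digestive genes lie along the upper edge, which holds genes with almost no counts in pupae, the Osiris genes reach the lowest values, and the ribosomal proteins form a compact cloud of high level just below 0.

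Genes of male reproduction made up the most uniform increase. Seminal fluid is secreted by the accessory glands and the ejaculatory duct and bulb, and it carries peptides that change the behaviour and egg laying of the mated female. All 34 genes of the accessory gland and ejaculatory tract list and all 28 other seminal fluid genes were higher in adult males, against 41.4% of all genes, with median differences of 7.31 and 4.64 compared with 0.19 over all genes. In every one of these genes all 3 adult libraries were above all 3 pupal ones, which held for 39.6% of all genes. The first list alone took 2.00, 2.91 and 1.84% of the counts in the adult libraries and 0.0214, 0.0212 and 0.0217% in the pupal ones. SP, the sex peptide that makes a mated female refuse further males (chromosome 3L, 13301635 to 13301922), stood at 0, 0 and 0.118 CPM in the pupae and at 274, 559 and 265 CPM in the adult males (difference 7.54 ± 0.21, SE; adjusted p = 4.2e-19). No adult library came near the pupal level. The ovulation-inducing peptide Acp26Aa reached 396, 464 and 368 CPM in the adult males from 0.117, 0 and 0 CPM. Acp36DE, needed for sperm storage, reached 1026, 615 and 991 CPM from 1.87, 2.23 and 0.471 CPM, a 577-fold ratio of the means. Sfp87B was without a single count in the pupae and had 2526, 4041 and 2156 CPM in the adult males, which is at least 8237-fold higher when 3 counts per library are taken as the floor.

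The ejaculatory bulb proteins, which form the mating plug, included 3 genes with unlike pupal levels. Ebp rose from 0.233, 0.106 and 0.118 CPM in the pupae to 4706, 5138 and 3909 CPM in the adult males (difference 10.96 ± 0.22). EbpII had no counts in the pupae and 1555, 2911 and 1436 CPM in the adult males, at least 5573-fold higher. EbpIII was already at 183, 177 and 189 CPM in the pupae and reached 1800.0, 2322 and 1505 CPM, a 10.3-fold ratio. EbpIII was thus the member of this trio with RNA well before adulthood. Its mean over the libraries of a stage was 634 CPM at P4 and 676 CPM at P5, the last of the early pupal stages P1 to P5. The tissue that held this RNA cannot be told from whole bodies. Acp32CD was another member with a pupal level, 12.6, 13.7 and 12.6 CPM, against 264, 306 and 249 CPM in the adult males.

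Genes of the testis also rose, but from a level that the pupae already had. Spermatogenesis begins before adulthood, with meiosis and then elongation of the spermatids. All 32 genes of sperm tails and sperm chromatin were higher, against 41.4% of all genes, with a median difference of 2.73. They took 0.15, 0.0674 and 0.343% of the counts in pupal replicates 1, 2 and 3 and 0.975, 1.22 and 1.6% in the adult replicates. The gene dj, coding for a sperm tail and mitochondrial protein, stood at 8.63, 3.18 and 50.9 CPM in the pupae and 179, 361 and 325 CPM in the adult males (difference 4.18 ± 0.53, adjusted p = 3.3e-07). Pupal replicate 3 was highest and replicate 2 lowest for this gene, and the adult libraries were all higher. The gene ProtB, a protamine-like protein that packages sperm DNA, had 8.63, 4.98 and 51.8 CPM in the pupae and 89.9, 197 and 159 CPM in the adult males, and its near copy ProtA rose from 9.16 to 50.3 CPM on average. S-Lap1, an abundant leucyl aminopeptidase of the sperm tail, rose from 167 to 1733 CPM, and the testis-specific tubulin betaTub85D from 219.8 to 705 CPM. The S-Lap genes are close relatives, and how reads were divided among them is uncertain.

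Of the 16 genes that drive testis transcription and meiosis, 12 were higher and none was lower by limma (none at an unadjusted p under 0.05), with a median difference of 0.77. Those that rose most were bol, a regulator of meiotic entry, from 39.2 to 226 CPM, fest, from 61.9 to 309.6 CPM, and twe, the meiotic phosphatase, from 9.37 to 36.3 CPM. The gene aly, a regulator of the spermatocyte program, had 9.68, 4.03 and 11.4 CPM in the pupae and 10.8, 8.26 and 11.5 CPM in the adult males, and these values overlapped (adjusted p = 0.28 by limma). All 12 genes of a list of Y-linked genes were higher, with a median of 1.02, whereas of all 61 tested genes placed on the Y chromosome 23 (37.7%) were higher. Their levels were low, for example 4.31, 1.48 and 2.47 CPM in the pupae and 8.77, 5.84 and 12.6 CPM in the adult males for kl-5, a dynein heavy chain of the sperm tail. With all libraries centred on their medians, 7 of the meiosis genes and 8 of the Y-linked genes were still called higher, where 30.2% of all genes were. Pupal replicate 3 was highest in the sperm list and replicate 2 lowest, and the proportion of males in each pupal pool is not known.

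The list of female genes was read beside the label of the adults as males. It does not tell the sex of the pupae, whose proportion of females is unknown. Among 13 yolk, chorion and vitelline membrane genes, 2 (15.4%, against 41.4% of all genes) were higher and 3 (23.1%, against 24.8%) lower. With centred libraries 2 were higher and 9 lower, where 30.2% and 41.1% of all genes were. The 9 included Cp15 and Cp38, which had no counts in either stage, so this count says little about female genes. The highest value in any library was that of Yp3 in the adult males. Yp3, a yolk protein, had 1.63, 1.91 and 1.65 CPM in the pupae and 7.5, 7.05 and 8.11 CPM in the adult males and was called higher. The yolk protein gene Yp1, with means of 0.34 and 2.36 CPM, was called higher too. The chorion and vitelline membrane genes were at or near 0 in both stages. Of the sex determination genes, dsx, whose sex-specific products direct the adult body plan, rose from 14.6 to 35.2 CPM. This list had 4 genes higher and 1 lower, and 1 higher and 4 lower with centred libraries, so that its direction turned with the scaling, although dsx was called higher under both.

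**Figure D3:**
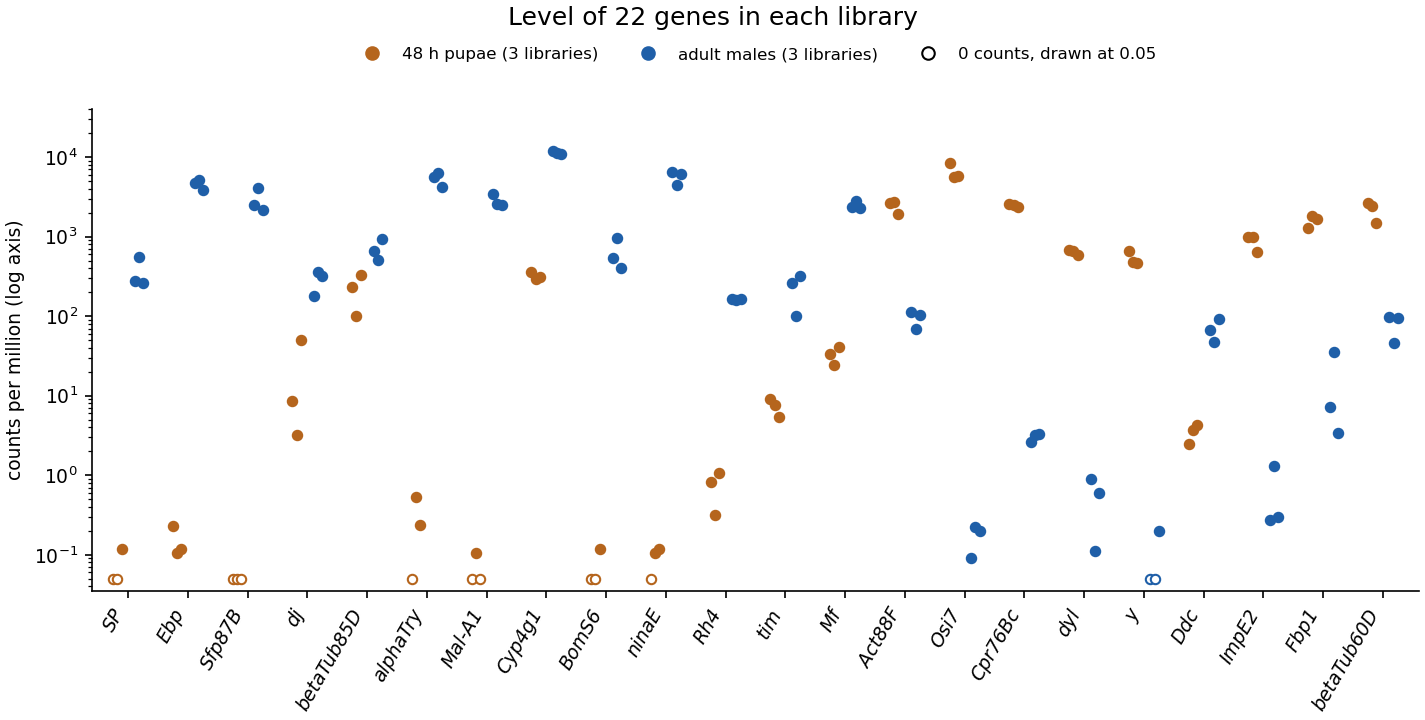
Level (CPM, log axis) of genes named in the text in each of the 3 pupal libraries (brown) and the 3 adult male libraries (blue), with open circles at 0.05 standing for 0 counts. The groups do not overlap in any of the genes drawn, and dj spreads widely among the pupae, from 3.18 to 50.9 CPM.

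Genes of digestion had almost no RNA in the pupae and much in the adult males. The adult midgut secretes serine proteases, maltases and amylases, whereas a pupa does not feed. Of 51 digestive enzyme genes, 42 were higher and 6 lower in adult males, against 41.4% and 24.8% of all genes. The median difference was 5.02. The list took 0.0359, 0.0365 and 0.0378% of the counts in the pupae and 3.02, 2.8 and 2.11% in the adult males. The trypsin gene alphaTry (chromosome 2R, 11344260 to 11345119) rose from 0, 0.53 and 0.235 CPM to 5708, 6239.7 and 4242 CPM (difference 11.15 ± 0.34, adjusted p = 1.5e-18). No count of betaTry was present in the pupae, against 2245, 3254 and 1704 CPM in the adult males, at least 6802-fold higher. These trypsin genes are near copies of one another, so the division of reads between them is uncertain. The maltase gene Mal-A1 rose from 0, 0.106 and 0 to 3466, 2604 and 2479 CPM. The amylase gene Amy-p rose from 0.117, 0.424 and 0.706 to 1763, 924 and 1153 CPM, and its near copy Amy-d had a mean of 1411 CPM in the adult males. All of these genes were near 0 in every pupal library. Against the list, LysX, a lysozyme gene, fell from 81.3, 73.3 and 71.9 CPM in the pupae to 3.07, 5.84 and 1.1 CPM, and the maltase gene Mal-A5 fell from 199 to 102 CPM. LysX had a mean of 289.7 CPM at P1 and 451 CPM at P2, so its RNA was high well before 48 h.

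The feeding stages flank the pupal gap. The digestive list took 10.9% of the counts in the 3rd instar library (1 library), 1.29% at P1, 0.0368% in the 48 h pupae and 2.64% in the adult males. Members differed in when they were used, since betaTry had 3331 CPM in the 3rd instar library and a mean of 2401 CPM in the adult males, whereas Mal-A1 had 240.5 CPM in the 3rd instar and 2849.6 CPM in the adult males.

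Most detoxification genes rose. Cytochrome P450 enzymes, glutathione transferases and glucuronosyltransferases modify hormones, lipids and foreign compounds. Of 152 members, 112 (73.7%, against 41.4% of all genes) were higher and 21 (13.8%, against 24.8%) lower, with a median difference of 1.11. Cyp4g1, the oenocyte enzyme that makes cuticular hydrocarbons (chromosome X, 467057 to 469335), rose from 364, 290.0 and 314 CPM to 11865, 11267 and 10848 CPM (difference 5.15 ± 0.13) and had the second highest count of the adult males, after mt:CoI. Cyp6g1, known for insecticide resistance, rose from 7.63 to 636 CPM, and Cyp313a1, at 0.0745 CPM in the pupae, reached 169.5 CPM. In the opposite direction Cyp303a1, which is needed for bristle structure, fell from 654, 550.2 and 486 CPM to 1.63, 0.882 and 3.2 CPM, a 296-fold ratio, and its stage mean outside 48 h pupae was highest at P4 (192 CPM). Adh, the alcohol dehydrogenase of the fat body and gut, rose from 67.6, 80.6 and 72.7 CPM to 5362, 4266 and 4101 CPM.

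Immune genes moved in both directions. Of 53 genes of antimicrobial peptides and immune-induced proteins, 29 (54.7%, against 41.4% of all genes) were higher and 8 (15.1%, against 24.8%) lower (26 and 14 with centred libraries), with a median difference of 1.24. All genes of the list that code for Bomanins, small secreted peptides induced by Toll signalling, rose. BomS6 had 0, 0 and 0.118 CPM in the pupae and 543, 949 and 402 CPM in the adult males (difference 8.31 ± 0.26), and BomBc2 rose from 1.6 to 464 CPM. The stress-induced Turandot genes were divided. TotC rose from 0, 0.318 and 0.471 to 961, 400.2 and 408 CPM, whereas TotB fell from 32.9 to 1.65 CPM. The antibacterial peptide gene DptA (diptericin) had 164, 27 and 1.4 CPM in the adult males and 32.6, 14.6 and 10.0 CPM in the pupae and did not pass the test (adjusted p = 0.62 by limma), adult replicate 1 being above and adult replicate 3 below all pupal libraries. Drs, the antifungal peptide drosomycin, had 48.4, 118 and 26.4 CPM in the pupae and 52.0, 68.7 and 32.6 CPM in the adult males and did not pass either (adjusted p = 0.86 by limma). Its relative Drsl4 rose from 0.117, 0 and 0 to 403, 754 and 350.1 CPM. Another relative, Drsl5, fell from 988, 976 and 1246 to 121, 172 and 94.6 CPM. The cecropin gene CecC, coding for an antibacterial peptide, fell from 36.4, 49.8 and 52.6 CPM to 1.54, 0.661 and 0 CPM, and its stage mean was 1102 CPM at P5.

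Genes of vision rose together. In the fly eye, rhodopsins absorb light, a G protein and the phospholipase C norpA relay the signal, TRP channels open, and arrestins end the response. Of 29 phototransduction genes, 25 were higher and none was lower by limma, against 41.4% and 24.8% of all genes. None was lower at an unadjusted p under 0.05 and 1 with centred libraries. The median difference was 2.13. The main rhodopsin gene ninaE (chromosome 3R, 19886255 to 19888206) rose from 0, 0.106 and 0.118 CPM in the pupae to 6484, 4510.3 and 6217 CPM in the adult males (difference 11.44 ± 0.16, adjusted p = 8.5e-24), the second largest difference of all genes. Rh4, a rhodopsin of inner photoreceptors, rose from 0.816, 0.318 and 1.06 to 166, 158 and 164 CPM. The other inner rhodopsins followed, Rh3 from 0.0781 to 79.9 CPM and Rh5 from 0.459 to 20.1 CPM. In none of these genes did pupal and adult libraries come near each other. Rh7, a rhodopsin of brain clock neurons, stood at 0.816, 1.06 and 1.88 CPM in the pupae and 0.904, 0.331 and 0.801 CPM in the adult males and did not pass the test (adjusted p = 0.089 by limma).

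The downstream components differed in how far they had risen by 48 h. The channel gene trpl was at 0.117, 0 and 0.118 CPM in the pupae and 379, 178 and 365 CPM in the adult males, whereas its partner trp already had 62.8, 47.0 and 36.9 CPM in the pupae and 195, 78.5 and 181 CPM in the adult males. The trp difference was 1.52 ± 0.25 and that of trpl 7.18 ± 0.19. Arrestin genes showed the same kind of contrast, since Arr1 rose from 0.856 to 667 CPM and Arr2 from 18.5 to 1127 CPM, a 60.9-fold ratio. The scaffold gene inaD rose from 11 to 54.0 CPM and norpA from 8.27 to 61.5 CPM. At 24 h these genes were lower still, with stage means of 0.0984 CPM for trp, 1.11 CPM for Arr2 and 0.333 CPM for inaD, so trp, Arr2 and inaD had risen between 24 h and 48 h while ninaE and trpl had not. Eye pigment genes were mixed, with 7 higher and 7 lower of 19, 36.8% each against 41.4% and 24.8% of all genes (4 and 8 with centred libraries, and 4 higher without adult replicate 1). Both cn, an enzyme of brown pigment synthesis (15.2 to 0.331 CPM), and the pigment transporter w (40.2 to 14.0 CPM) fell, whereas v, which acts upstream of cn, rose from 3.17 to 32.5 CPM.

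Neuronal genes were called higher about as often as genes in general. Of 31 genes of synaptic release and transmitters, 14 (45.2%, against 41.4% of all genes) were higher and none was lower by limma (none at an unadjusted p under 0.05 and 3 with centred libraries), with a median difference of 0.57. Complexin (cpx), a clamp of vesicle fusion, rose from 20.3, 6.15 and 28.8 CPM to 146, 88.7 and 186 CPM, the GABA-synthesizing enzyme gene Gad1 from 4.03 to 41.6 CPM and the monoamine transporter gene Vmat from 4.86 to 51.9 CPM. The neuronal marker elav had 19.5, 8.16 and 23.2 CPM in the pupae and 10.0, 8.93 and 11.1 CPM in the adult males and did not pass the test (adjusted p = 0.17 by limma). The genes stnA and stnB carried identical values and are 1 measurement. Of 10 circadian clock genes, 6 were higher and 2 lower, against 41.4% and 24.8% of all genes. The largest difference among them was that of tim, a repressor of the clock loop, from 9.09, 7.74 and 5.41 CPM to 261, 100.3 and 318 CPM (difference 4.32 ± 0.23). Adult replicate 2 was lowest for tim and for Clk (22.5, 11.1 and 34.4 CPM in the adult males), as it was for genes outside the clock such as trp and Mhc. The gene sls, with 58996 bases of exon, had 381, 171 and 549 CPM in the adult males, whereas SP, with 223 bases, had 274, 559 and 265 CPM. Against this order, trol, with 20674 bases, had 482, 915 and 393 CPM. A relation between exon length and the level in single libraries was not tested. The hour of collection is not given in the sources used here.

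Olfactory genes divided into binding proteins and receptors. Odorant-binding proteins are small secreted carriers, many but not all of them of the antenna. Of 51, 30 (58.8%, against 41.4% of all genes) were higher and 10 (19.6%, against 24.8%) lower. With centred libraries 27 were higher and 16 lower, where 30.2% and 41.1% of all genes were. Obp19d rose from 0.117, 0.106 and 0.353 to 432, 487 and 362 CPM and Obp56d from 0.871 to 478 CPM. Obp73a, a conserved member, fell from 250.2, 229 and 245 CPM to 0.0904, 0.22 and 0 CPM, and its stage mean was under 1 CPM at every other stage, so that among the stages sampled its RNA was nearly confined to the 48 h pupae. The member with the highest count in both stages, Obp99c, fell from 4010.2, 4003 and 6319 to 1106, 1516 and 952 CPM. Obp50b and Obp50c carried identical values. The 183 odorant, gustatory and ionotropic receptor genes had no direction that held under both scalings. On the deposited scale 56 (30.6%, against 41.4% of all genes) were higher and 9 (4.92%, against 24.8%) lower. With centred libraries 10 were higher and 82 lower, where 30.2% and 41.1% of all genes were. Centring moves genes without counts downward, and this list took 0.00527% of the pupal and 0.0113% of the adult counts on average. Orco, the coreceptor of most odorant receptors, rose from 0.816, 0.212 and 0.118 to 8.23, 5.51 and 7.31 CPM under either scaling.

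Muscle genes did not move together. Flight muscle is built during the pupal period, and sarcomere genes were already abundant in the 48 h pupae, the list of 32 taking 1.81, 1.54 and 1.68% of the pupal and 1.55, 1.3 and 1.53% of the adult counts. Of these genes 7 (21.9%, against 41.4% of all genes) were higher and 12 (37.5%, against 24.8%) lower, with a median difference of -0.17. The myosin heavy chain gene Mhc had 1781, 1440.1 and 848 CPM in the pupae and 1569, 537 and 1577 CPM in the adult males, with overlapping groups (adjusted p = 0.65 by limma). The flight muscle actin gene Act88F fell from 2651, 2717 and 1951 CPM to 113, 68.4 and 103 CPM, a 25.8-fold ratio. In contrast, Mf (myofilin, a thick filament protein) rose from 33.7, 24.3 and 40.5 to 2359, 2801 and 2289 CPM, Zasp66, of the Z disc, from 12.4 to 586 CPM, and Mp20, a calponin-like protein, from 34.3 to 305 CPM. The flightin gene fln, another thick filament protein of flight muscle, fell from 139, 82.9 and 187 to 71.4, 77.5 and 78.7 CPM, a 1.79-fold ratio. Actin genes are similar in sequence, so reads shared among Act57B, Act79B, Act87E and Act88F make their levels less certain.

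Most genes of energy metabolism rose or did not pass the test. Of 23 genes of glycolysis and the glycerol phosphate shuttle, 16 (69.6%, against 41.4% of all genes) were higher and none was lower by limma. None was lower at an unadjusted p under 0.05 and 3 with centred libraries. The median difference was 1.35. The hexokinase gene Hex-C rose from 1.05, 1.48 and 1.06 to 199, 178 and 132 CPM, a 142-fold ratio, and Gpdh1, which regenerates NAD in flight muscle, from 55.4, 50.5 and 52.1 to 637, 610.3 and 576 CPM. Hex-A, the hexokinase of most tissues, rose from 77.5 to 218 CPM, and the testis hexokinase Hex-t2 from 11.9 to 133 CPM. The widespread aldolase gene Ald1 rose from 696 to 1998 CPM, a 2.87-fold ratio, and its paralog Ald2 from 7.39 to 81.3 CPM, an 11-fold ratio. Of 66 main subunits of oxidative phosphorylation, 36 (54.5%, against 41.4% of all genes) were higher and 1 lower. The higher count was 25 to 49 when single libraries were left out. With centred libraries 16 were higher and 2 lower, where 30.2% and 41.1% of all genes were. The share of higher subunits was thus above that of all genes only on the deposited scale. Of 26 paralogs of respiratory genes, Cyt-c-d and genes named as -like, 24 (92.3%, against 41.4% of all genes) were higher and none lower by limma. None was lower at an unadjusted p under 0.05 and 1 with centred libraries. Because the adult pools held males only, sex and stage cannot be told apart for paralogs that differ between the sexes. The cytochrome c genes rose by similar ratios from unlike levels, Cyt-c-p from 109, 75.3 and 128 to 569, 609.9 and 555 CPM and the testis form Cyt-c-d from 22.7, 12.2 and 49.4 to 115, 174 and 198 CPM. Pupal replicate 3 was highest and replicate 2 lowest in Cyt-c-d, Ald2 and Hex-t2, an order that Cyt-c-p, cpx and elav had as well.

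**Figure D4:**
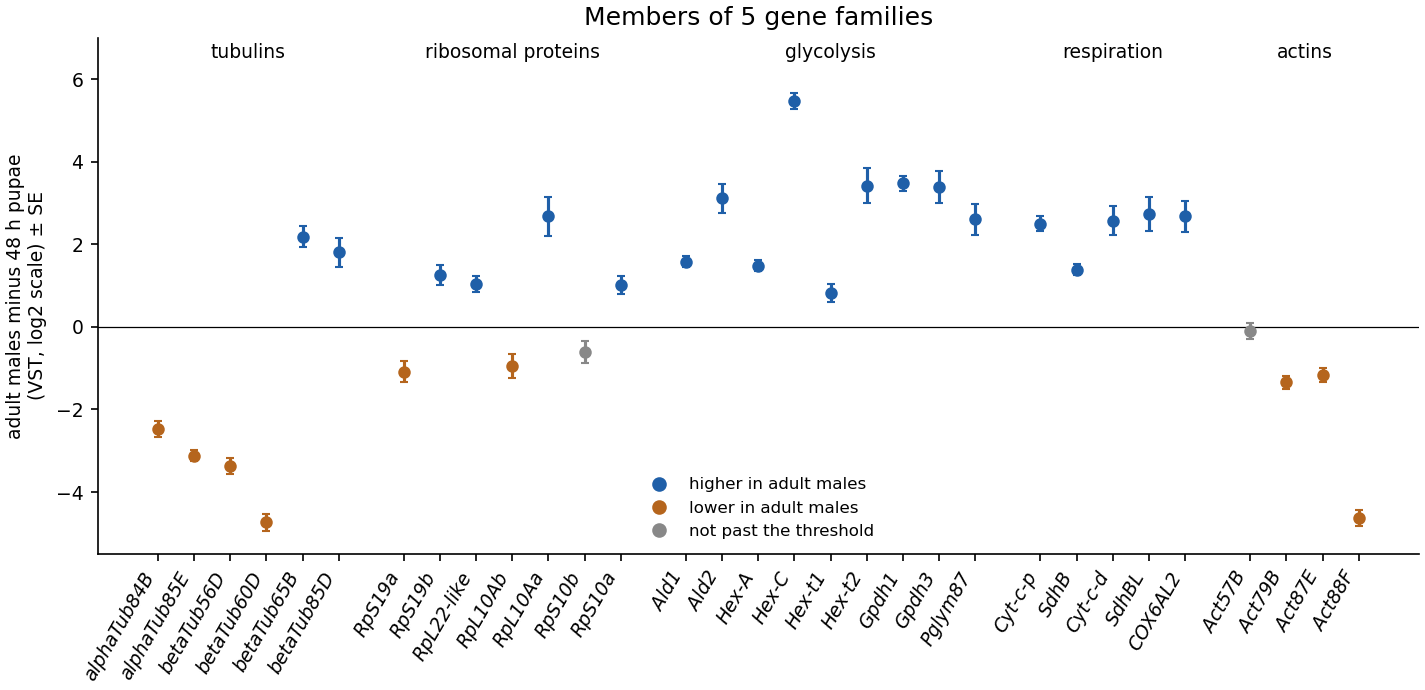
Difference between adult males and 48 h pupae (VST value, log2 scale, ± SE from limma) for members of 5 gene families, coloured by call. The tubulins betaTub65B and betaTub85D and the ribosomal paralogs RpS19b, RpL22-like, RpL10Aa and RpS10a were higher in adult males, while the main tubulins and RpS19a and RpL10Ab were lower.

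Most ribosomal protein genes fell. Of 92 genes, 75 were lower, against 24.8% of all genes, and 6 higher, with a median difference of -0.87. The count of lower members was 43 without adult replicate 3, and 82 with centred libraries. The list took 18.8, 20.6 and 22.4% of the counts in the pupae and 10.6, 13.5 and 9.08% in the adult males. RpL41, with the largest decrease of the list, had 3985, 4371 and 4313 CPM in the pupae and 1386, 2784 and 1276 CPM in the adult males (difference -1.28 ± 0.31). Adult replicate 2 lay closest to the pupae in this gene. The 6 genes that rose included RpL10Aa, from 3.26, 2.44 and 21.8 to 40.2, 65.7 and 64.7 CPM, and RpS19b, from 16.2, 7.84 and 16.2 to 27.3, 39.3 and 37.2 CPM, whereas RpS19a fell from 2049 to 955 CPM. The level of RpS19b in adult males was thus far below that of RpS19a even after its rise, at 52.0 against 761 CPM per kb of exon length.

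Tubulins also changed in both directions. The main tubulins of the pupa fell. The alpha tubulin gene alphaTub84B fell from 7819, 8875 and 7419.5 to 1431, 1353 and 1463 CPM and the beta tubulin gene betaTub56D from 4115 to 389 CPM. betaTub60D, a beta tubulin of differentiating muscle and epidermal attachment cells, fell from 2649.8, 2445 and 1497 to 97.1, 46.5 and 94.2 CPM, a 27.7-fold ratio, and no adult library came near the pupal range. Of 10 tubulins (betaTub85D was counted with the sperm genes) 7 were lower and 3 higher, against 24.8% and 41.4% of all genes. Of the 3, only betaTub65B was still higher with centred libraries, and gammaTub37C rested on 4 counts in the pupae and 13 in the adult males. The increase of betaTub65B, from 14.5, 8.9 and 20.6 to 67.7, 60.2 and 97.8 CPM, was the largest among them.

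Genes of the forming cuticle were among those that fell most. The Osiris genes, a family of transmembrane proteins clustered on chromosome 3R with a role in shaping cuticle nanostructures such as the pores of olfactory bristles, contained the 3 largest decreases of all genes. They were singled out after their values had been seen, so no count of calls is given for them. The 23 members took 2.50%, 2.04% and 2.26% of the counts in the pupae and 0.00165% to 0.0021% in the adult males. Osi7 (chromosome 3R, 6248994 to 6251683) stood at 8495, 5686 and 5729 CPM in the pupae and 0.0904, 0.22 and 0.2 CPM in the adult males (difference -11.41 ± 0.26). Its neighbour Osi12 (6278531 to 6282495) stood at 5977, 4321 and 5752 CPM in the pupae and 0.904, 0.661 and 1.2 CPM in the adult males, and Osi3 (6215832 to 6218199) at 4870.4, 4598 and 5292 and 0.542, 0.22 and 0.1 CPM. Osi7 and Osi12 were among the 10 genes with the most counts in the pupae, and all 3 genes were near 0 in the adult males. The family was not uniform, since several members were under 1 CPM on average in both stages and Osi13 had 1.53 CPM in the pupae and 1.08 CPM in the adult males. Osi7 also had a peak at P3 (5483 CPM), when the pupal cuticle forms, while Osi3 (15.6 CPM at P3) and Osi12 (8.57 CPM at P3) did not.

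Apical matrix proteins with a zona pellucida domain link the epidermal membrane to the cuticle and shape hairs and wing cells. All 12 members fell, against 24.8% of all genes, with a median difference of -5.77. The dusky-like gene dyl, required for wing hairs and bristles, fell from 675, 668 and 591 CPM to 0.904, 0.11 and 0.601 CPM, a 1197-fold ratio. The wing gene dy (dusky) fell from 261, 243 and 154 to 0.181, 0 and 0.1 CPM, and m (miniature), of the same family, from 117, 94.7 and 85.3 to 0.0904, 0 and 0.1 CPM. Planar polarity, wing hair and bristle genes fell with them. Of 19 genes, 16 (84.2%, against 24.8% of all genes) were lower and 2 (10.5%, against 41.4%) higher. The higher count was 1 without pupal replicate 3 or adult replicate 1, and 0 without adult replicate 3. It was also 0 with centred libraries, against 30.2% of all genes. The actin bundling gene f (forked) fell from 149, 122 and 93.8 CPM to 0.542, 0.551 and 0.4 CPM, and mwh, which limits each wing cell to a single hair, from 124, 125 and 58.6 to 11.8, 7.38 and 11.5 CPM. The cadherin gene ft (fat) fell from 79.4, 128 and 20.1 to 3.07, 0.771 and 2.00 CPM, with pupal replicate 3 the lowest of the pupae.

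Structural cuticle genes were divided between stages. Of 124 cuticle protein genes, 42 (33.9%, against 24.8% of all genes) were lower and 14 (11.3%, against 41.4%) higher, with a median difference of -0.26. With centred libraries 75 were lower and 10 higher, so that how many passed the test depended on the scaling. The 4 cuticle genes of the highest pupal level per kb of exon length, TwdlT, Cpr66D, Cpr76Bc and Cpr66Cb, all fell. Cpr76Bc went from 2609, 2504 and 2334 to 2.62, 3.2 and 3.3 CPM (difference -8.67 ± 0.17), and TwdlT, of the Tweedle family, from 2915, 2619.9 and 2343 to 5.79, 5.73 and 5.91 CPM. Cpr76Bc was nearly confined to the 48 h pupae, its next highest stage mean being 21 CPM at 24 h, whereas TwdlT had a higher stage mean at P4 (4442 CPM). Others were adult genes. Cpr65Au had no counts in the pupae and 193, 361 and 202 CPM in the adult males, at least 714-fold higher, and Cpr67Fb had 0, 0.106 and 0.353 and 85.4, 139.5 and 92.5 CPM. The annotation places an antisense RNA over the exons of both Cpr65Au and Cpr67Fb, and since the strand setting of the counting is not given in the sources used here, reads of the partners cannot be told apart.

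Most genes that make and modify chitin, the polysaccharide of the cuticle, fell, while secreted chitinase-like factors rose. Of 30 genes 18 were lower and 9 higher, with a median difference of -1.61. The chitin synthase gene kkv fell from 357, 303 and 198 to 4.16, 1.1 and 5.61 CPM, the chitin deacetylase genes verm and serp from 1274 to 13.1 CPM and 755 to 10.8 CPM, and the chitinase gene Cht7 from 709, 603 and 431 to 1.99, 1.32 and 1.6 CPM, a 355-fold ratio. Those that rose were Cht9, from 1.12 to 78.3 CPM, Cht12, Cht4 and the 6 imaginal disc growth factors Idgf1 to Idgf6, which are chitinase relatives without enzyme activity, with differences of 1.14 (Idgf4) to 1.93 (Idgf1).

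Tanning genes changed in both directions. Of 21 genes, 12 (57.1%, against 41.4% of all genes) were higher and 8 (38.1%, against 24.8%) lower. Genes of catecholamine synthesis rose. The tyrosine hydroxylase gene ple rose from 2.8, 5.83 and 2.82 to 32.6, 16.3 and 34.6 CPM and the dopa decarboxylase gene Ddc from 2.45, 3.71 and 4.24 to 67.5, 47.3 and 92.9 CPM. The gene b (black), which supplies beta-alanine, rose from 1.87 to 71.6 CPM. The yellow gene y, needed for black melanin, fell from 659.6, 482 and 461 CPM to 0, 0 and 0.2 CPM, and its relatives yellow-d2 (193 to 1.51 CPM) and yellow-f (114 to 6.07 CPM) fell too, as did the laccase-like gene stw (straw), from 296, 152 and 251 to 10.6, 6.5 and 15.4 CPM. Of these genes, ple had a stage mean of 5924 CPM and Ddc of 291 CPM at P1, above their levels at 48 h and in the adult males.

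Most ecdysone response genes were lower in adult males. Ecdysone binds the receptor EcR/usp and switches on a cascade of nuclear receptors and other early genes, and a large pulse of the hormone occurs in the pupa. Of 23 response genes, 14 were lower and 3 higher, against 24.8% and 41.4% of all genes, with a median difference of -0.95. The receptor genes themselves did not pass the test. EcR had 18.2, 8.8 and 16.6 CPM in the pupae and 12.1, 5.18 and 14.7 CPM in the adult males (adjusted p = 0.34 by limma), and usp had 35.5 and 29.2 CPM on average (adjusted p = 0.091 by limma). Among the early genes Eip78C fell from 783, 502 and 548 to 3.98, 3.42 and 5.21 CPM, a 145-fold ratio. Eip74EF fell from 240.3, 146 and 148 to 11.1, 6.28 and 17.0 CPM, Hr4 from 438 to 6.07 CPM and Eip75B from 192 to 38.2 CPM. The ecdysone-inducible gene ImpE2, of imaginal epithelia, fell from 989, 991 and 649 to 0.271, 1.32 and 0.3 CPM and ImpL1 from 559 to 0.839 CPM. The genes that rose were ftz-f1, which is active when ecdysone is low, from 3.26, 2.97 and 3.77 to 19.1, 11.4 and 28.2 CPM, Blimp-1, from 7.93 to 25.2 CPM, and rib.

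Most juvenile hormone genes were higher in adult males. This hormone is made by the corpora allata and in adults promotes reproduction. Of 11 genes 9 were higher and 1 lower, against 41.4% and 24.8% of all genes. The gene of a late enzyme of its synthesis, jhamt, had no counts in the pupae and 9.76, 7.49 and 8.11 CPM in the adult males, at least 24.0-fold higher. The target gene Kr-h1 had 0.933, 0.106 and 0.235 CPM in the pupae and 41.9, 10.1 and 40.1 CPM in the adult males, with adult replicate 2 the lowest of the adults. The gene to (takeout), of a carrier protein family, rose from 0, 0.53 and 0 to 46, 52.6 and 54.8 CPM. The exception was Jhe, an esterase that breaks the hormone down, which fell from 54.7, 57.8 and 82.6 to 8.59, 6.72 and 4.91 CPM. Its stage mean had been 1412 CPM at P4. Breakdown genes did not fall as a group, since Jheh1, Jheh2 and Jheh3 rose from 32.8, 118 and 3.76 to 112, 218 and 89.4 CPM. The esterase relative Jhedup rose too, from 0 to 28.5 CPM on average.

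Genes of larval storage proteins still had RNA in the pupae. The larval serum proteins are stored in the fat body and used up during metamorphosis. Of 12 larval genes, 6 were lower and none higher by limma (none at an unadjusted p under 0.05). The 6 that fell were the serum and fat body protein genes, and the 6 glue genes, made by larval salivary glands, were at or near 0 in both stages. Lsp2 fell from 4285, 5261 and 3800.2 CPM in the pupae to 544, 383 and 451 CPM in the adult males, and its exons overlap an antisense RNA. Lsp1gamma fell from 437, 474 and 465 to 1.63, 4.41 and 2.1 CPM. Fbp1, the receptor of the serum proteins, fell from 1275, 1796 and 1687 to 7.14, 35.5 and 3.4 CPM. Fbp1 had been far higher before 48 h, with a stage mean of 68491 CPM at P3.

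**Figure D5:**
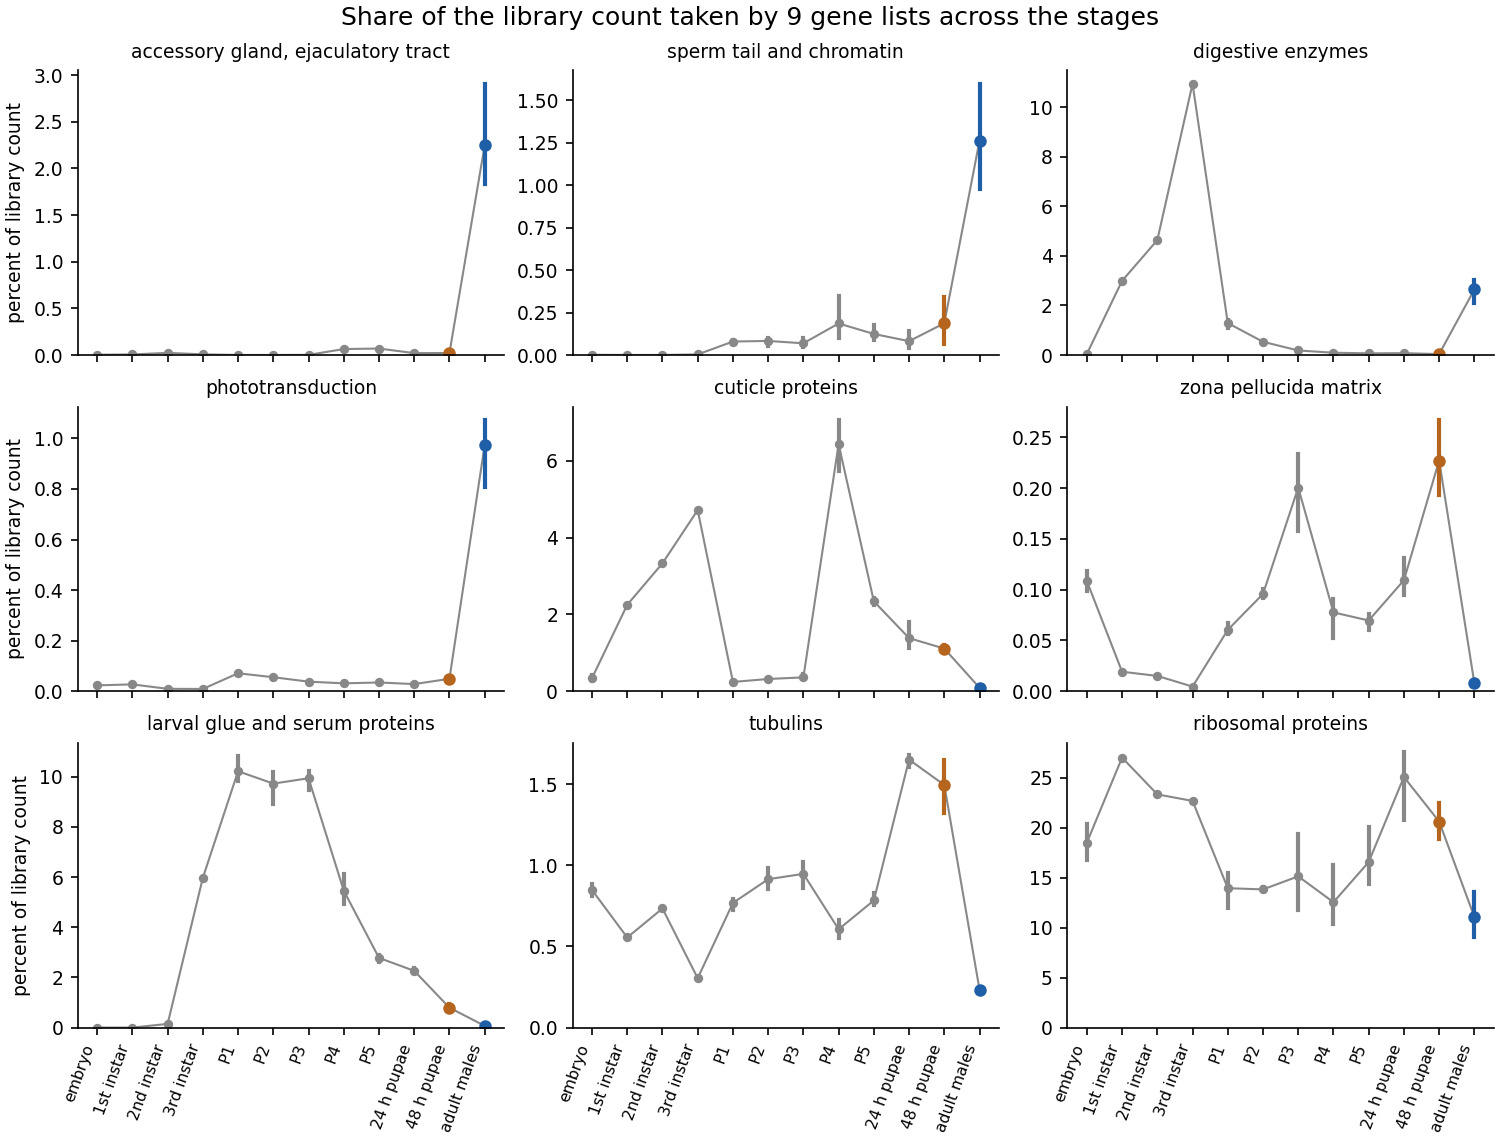
Share of the library count taken by 9 gene lists at each stage from embryo to adult males (percent), as the mean (points) and the range over the libraries of a stage (bars), with 48 h pupae in brown, adult males in blue and 1 library for each larval instar. Seminal fluid and phototransduction genes appear in the adult males, digestive enzymes return after a pupal gap, and the larval list declines after P3 to 0.793% at 48 h.

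Genes of the basement membrane were mostly lower in adult males. Of 15 genes of blood cells and basement membrane, 11 were lower and 3 higher, against 24.8% and 41.4% of all genes. The laminin gene LanA fell from 515, 499 and 192 to 34.4, 13.3 and 33.4 CPM and LanB2 from 372 to 19.6 CPM. The perlecan gene trol fell from 2585, 1215 and 6586 to 482, 915 and 393 CPM, with pupal replicate 3 far above the other pupae. NimC4, a receptor for engulfing dead cells, fell from 189.7, 195 and 198 to 2.89, 1.43 and 3.1 CPM. The blood cell genes that rose were Hml (hemolectin), from 2.22, 2.86 and 1.41 to 138, 54.0 and 130.3 CPM, NimC1 and eater. Of 10 cell death genes 8 were lower and 2 higher, against 24.8% and 41.4% of all genes. The initiator caspase gene Dronc fell from 146, 107 and 144 to 14.1, 10.6 and 18.4 CPM and the death activator rpr from 9.77 to 0.521 CPM. Diap1, an inhibitor of caspases, fell too, from 441, 367 and 418 to 199, 163 and 208 CPM. The small heat shock proteins, some of which ecdysone induces in normal development, were lower in 7 of 8 genes, against 24.8% of all genes. Hsp23 fell from 894, 843 and 1256 to 29.1, 49.6 and 35.9 CPM and Hsp26 from 1001 to 102 CPM.

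Patterning genes were mostly lower as well. Of 21 Notch pathway and proneural genes 12 were lower, against 24.8% of all genes, and 1 higher (19 and 0 with centred libraries). Of 21 patterning signals and selector genes 11 (52.4%, against 24.8% of all genes) were lower and 1 higher (15 and 0 with centred libraries). The signal gene hh (hedgehog) fell from 21.8, 19.9 and 22.4 to 5.24, 4.74 and 3.7 CPM, and wg (wingless) from 6.71 to 1.2 CPM. The receptor gene N (Notch) fell from 28.3, 39.2 and 22.2 to 7.32, 3.75 and 11.5 CPM, a difference of -1.67 ± 0.60. Of 32 cell cycle genes 15 (46.9%, against 24.8% of all genes) were lower and 7 (21.9%, against 41.4%) higher. DNA replication genes such as PCNA (19.9 to 9.18 CPM) and RnrS (29.8 to 10.4 CPM), and stg, which starts mitosis (8.61 to 1.27 CPM), fell. Those that rose included the mitotic kinases polo, from 27.1 to 72.2 CPM, and aurA, from 12.8 to 29.1 CPM. With centred libraries 21 were lower and 2 higher, the latter being polo and aurA, where 41.1% and 30.2% of all genes were. CycB, a mitotic cyclin counted with the meiosis genes, rose from 28.1, 14.6 and 36.4 to 59.1, 44.1 and 79.0 CPM.

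Insulin-like peptide genes moved in both directions. Ilp2, made by brain neurosecretory cells, rose from 0.583, 0.212 and 0.353 to 11.9, 18.8 and 12.6 CPM, and Ilp6, made by the fat body in the non-feeding stages, fell from 89.3, 79.4 and 89.4 to 19.3, 14.8 and 18.1 CPM. Thor (4E-BP), a target of foxo, rose from 51.5, 62.5 and 49.3 to 238, 278 and 255 CPM. Of 11 genes of this list 5 were higher and 2 lower, against 41.4% and 24.8% of all genes.

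The stages at which the changed genes were highest are given as a description, since the choice by direction keeps the 48 h pupae out of the first set and the adult males out of the second. Of 3737 genes at least 1 higher in adult males, 2508 (67.1%) had their highest stage mean in the adult males and 680 (18.2%) in the 3rd instar library. Of 1528 genes at least 1 lower, 383 (25.1%) had their highest stage mean in the 48 h pupae, 196 in the 3rd instar and 193 in the embryo. The highest stage mean of the genes that fell was thus spread over many stages.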

How the data were processed

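Poly(A) RNA of whole-animal pools was sequenced as directional paired-end libraries. The authors trimmed reads with fastp, quantified them with Kallisto against the BDGP6.46 transcriptome, summed transcripts per gene, and deposited variance-stabilized values from DESeq2, which are on a log2 scale and fitted over all 30 libraries of the species. The value of a count of 0 and the step to a count of 1 allowed every library to be inverted to counts: all values up to a count of 200 came out whole within 0.01, and CPM were computed from these recovered counts. Gene symbols were found for 14117 of 14127 identifiers in the BDGP6.54 annotation, which was used for names and positions only. The strand setting of the quantification is not given in the sources used here.

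Values of 27 libraries of 9 stages, the stages with 3 replicates each, were fitted with limma (version 3.58.1, R version 4.3.3; lmFit, contrast of adult males minus 48 h pupae, eBayes with a trend), and p-values were adjusted by the Benjamini-Hochberg method over 14048 genes with varying values. SE are from this fit, and the larval libraries, 1 for each instar, entered only stage values. The fit was tested on simulated data. The floor for genes without counts was 3 counts per library, 0.318 to 0.353 CPM in the pupae, and covers counting error only. The 39 gene lists and the genes to name were chosen with earlier results of these data known. Genes named in the text were drawn from the 15 largest changes in each direction without overlap of the groups, the 10 genes with the highest count in each stage, every member of lists of up to 40 genes, and the 6 largest changes in each direction of longer lists, and not all of these are named. Adh, Amy-p, Amy-d, DptA, Drs, RpS19a, RpL10Ab and Osi13 fall outside this rule and were chosen after their values were seen. The list symbols rye, dp, phm and Rh6 were not analysed here. Alternatives were 6 libraries only, 29 libraries with larvae, a replicate block, single libraries left out, no trend, robust moderation, a filter on low values, median centring, a difference of at least 1, log2 CPM with a pseudocount of 1 or 0.1, and limma-voom on recovered counts.

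Exons of twe, Yp1, dsx, Mal-A1, Cyp6g1, Adh, BomBc2, inaD, Vmat, tim, elav, Gpdh1, Ald1, Cyt-c-d, Cht9, Cht12, Ddc, ftz-f1, usp, Kr-h1, aurA, Cyp303a1, cn, Obp73a, Obp99c, fln, f, yellow-f, Hr4 and RpL10Ab overlap those of other annotated genes, and how reads were divided in the overlaps is uncertain. The same holds for Jheh1, Jheh2, Jheh3, Diap1, grim, sls, CG15615 and CG9083, and other named genes may have such overlaps too.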

Additional observations from a re-analysis of the deposited data

How the results depend on the processing

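Against 5821 genes higher and 3480 lower, other settings left the higher count at 4242 to 5860 and the lower count at 2589 to 3516, with 3 exceptions. Requiring a difference of at least 1 left 3737 higher and 1528 lower, and median centring raised the lower count to 5768. No gene was called in the opposite direction under any of 17 settings. Leaving out single libraries gave 5422 to 5860 higher and 3200 to 3398 lower. The replicate numbers did not pair the samples, with correlations of same-numbered deviations of 0.36, -0.13 and -0.11, and a replicate block gave 5803 higher and 3443 lower and the same call for all named genes. Of genes whose difference was given, the sign turned only in 4 that did not pass the test. The difference of aly was -0.10 after centring, and leaving out single libraries gave -0.55 to 0.20 for Mhc (0.20 without adult replicate 2), -0.78 to 1.90 for DptA (-0.78 without adult replicate 1) and -0.60 to 0.53 for Drs (0.53 without pupal replicate 2 and 0.25 without adult replicate 3). The cause was not tested.

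List counts that moved by more than 1.5 times when 1 library was left out, beside those given with their lists, were sex determination (higher 4 to 2 without adult replicate 1 or 3), Hox genes (higher 2 to 1 without pupal replicate 2 or adult replicate 1 or 3), patterning (higher 1 to 0 without adult replicate 3), phototransduction (lower 0 to 1 without pupal replicate 1), synaptic genes (lower 0 to 1) and main respiratory subunits (lower 1 to 0). The 3 pools per stage and their depth limit what low genes can show, and a gene without counts allows up to 0.353 CPM.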

Other observations

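Several of the genes that changed most belong to none of the lists. Met75Cb (chromosome 3L, 18469378 to 18469618) had the largest difference of all genes, from 0.117, 0 and 0 CPM in the pupae to 6065, 9891 and 4627 CPM in the adult males (difference 11.77 ± 0.23). CG16826 (chromosome 2L, 13347773 to 13349020) had no counts in the pupae and 4539, 4505 and 3504 CPM in the adult males, at least 11850.5-fold higher. CG18628 rose from 0.23 to 3398 CPM and CG5107 from 0.0389 to 1370.5 CPM. Among the genes that fell, CG2150 came next after the Osiris trio, from 1636, 1335 and 1835 CPM in the pupae to 0.0904, 0 and 0.501 CPM in the adult males. CG15615 fell from 2380.0 to 0.712 CPM, CG9083 from 1096 to 0 CPM and Vajk4 from 2128 to 1.64 CPM. No role is given here for these genes.

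The chromosome arms had similar shares of changed genes, with the small chromosomes apart. On X, 36.8% of 2209 tested genes were higher and 26.7% lower in adult males, and on 2L 45.9% of 2666 genes were higher and 23.3% lower. The other large arms lay between these, from 40.6% to 43.0% higher. On chromosome 4, 28.2% of 85 genes were higher and 10.6% lower. Of 61 tested genes placed on Y, 23 were higher.

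Of 13 genes of the mitochondrial genome only mt:ATPase6, a subunit of ATP synthase, passed the test. It had 1332, 479 and 3952 CPM in the pupae and 2824, 8323 and 3138 CPM in the adult males, and the groups overlapped. Its exons overlap those of mt:ATPase8 and mt:CoIII, and pupal replicate 3 and adult replicate 2 were highest within their stages.

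Of the 8 Hox genes, selectors of segment identity, 2 were higher and 2 lower, 25.0% each against 41.4% and 24.8% of all genes. With centred libraries 0 were higher and 4 lower, so that the higher calls were lost with the scaling. Of 9 genes of ecdysteroid synthesis and breakdown, 3 were higher and 5 lower, against 41.4% and 24.8% of all genes. The higher count was 1 without pupal replicate 2 or with centred libraries. The cell death list held 2 genes that rose, Damm, a caspase, from 0.767 to 14.2 CPM, and grim, a death activator, from 1.28 to 3.76 CPM.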
